A study of Drosophila melanogaster with 6 samples.

Results

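The ring gland hormone synthesis genes described here were 7 genes taken by symbol from the deposited table of 17737 genes, and all 7 passed the filter on low counts that left 9495 genes for testing. Of these, nvd, sro, spok, phm, dib and sad encode ecdysteroid synthesis enzymes of the prothoracic gland, and jhamt encodes an enzyme of juvenile hormone synthesis in the corpora allata. RNA sequencing was done on brains of Drosophila melanogaster larvae of the third instar, in 3 DNMT3L and 3 control libraries, and every library carried the driver elavC155-Gal4, which expresses the yeast activator Gal4 in neurons. In the DNMT3L libraries the driver was crossed to w/w flies that held P(UAS-DNMT3L,w+) over the balancer Cyo, together with the balancers TM2 and TM6B. DNMT3L is a mammalian partner of DNA methyltransferases with no catalytic activity of its own. The control libraries carried the driver without the transgene. Whether larvae were picked from the cross for the transgene, whether replicates were separate animals, and how many brains, which sex or which hour of the instar went into a sample are not stated in the labels. The p-values therefore measure only the spread between these samples. Total counts per library were between 17928420 and 19251845.

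The ring gland is a small endocrine organ that sits on the larval brain and holds the prothoracic gland, the corpora allata and the corpora cardiaca. The prothoracic gland makes ecdysone from dietary cholesterol in a chain of enzymes known as the Halloween enzymes, and pulses of the hormone time the moults. The corpora allata make juvenile hormones, which keep a moult larval. In larvae these enzymes are known chiefly as gland genes. In bulk samples fewer gland cells and less RNA per gland cell cannot be told apart.

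All 7 genes were annotated on the plus strand. On the BDGP6 build, nvd spans positions 24324866 to 24401655 of chromosome arm 3L and spok spans 3322810 to 3354486 of 3R, and both are known as genes of heterochromatin near the centromere. Their longest introns are 34792 bases in nvd and 29910 bases in spok, around 1722 and 1767 bases of exon. The other 5 genes are compact. The gene phm lies on X from 18685766 to 18688433, dib on 3L from 4062292 to 4064551, sad on 3R from 11877235 to 11879754, sro on 3R from 29794597 to 29795805, and jhamt on 2L from 16365903 to 16367039. Exons of dib, sad and sro overlap a gene on the other strand by 400, 53 and 109 bases, namely wit, CG6962 and Rnb. Whether counting used strand was not given in the sources used here, and reads in those stretches cannot be assigned with certainty. The deposited description on the phm row names the amidating enzyme encoded by a different gene, Phm, whereas the identifier on that row, FBgn0004959, belongs to the Halloween gene phantom.

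No member differed between the groups past the threshold, in a test that recovered 20% of simulated 2-fold changes. By mean, all 7 were lower in DNMT3L libraries, with log2 fold changes between −0.98 for jhamt and −0.23 for nvd and a median of −0.77, beside a median of −0.03 over all 9495 genes and a background of 52.3% of genes with a negative value. The edgeR quasi-likelihood test with Benjamini-Hochberg adjustment called 0 of the 7, at adjusted p between 0.332 and 0.696, against a background of 0% (0 of 9495). DESeq2 also called none of the 7, against a background of 3.08% (292 genes). At an unadjusted edgeR p under 0.05 there were 2 members, phm and sad, where the background was 15% in either direction (1427 genes) and 8.79% in the lower direction. The DNMT3L libraries were far from alike. In every member DNMT3L 1 and DNMT3L 3 lay below all 3 controls, which held for 21.4% of all genes tested, while DNMT3L 2 lay near the controls. This split was picked out from the same values and is a description.

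**Figure D1:**
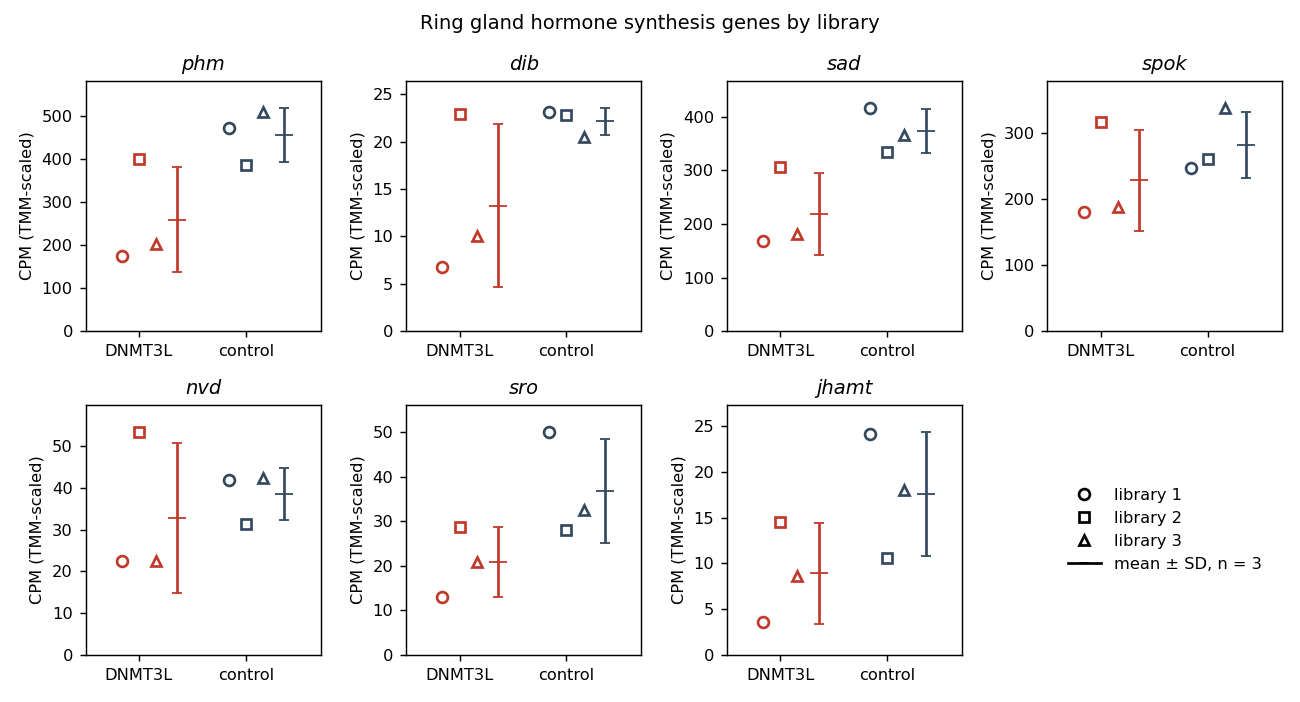
CPM scaled by TMM (vertical axis, starting at 0) of each ring gland hormone synthesis gene in the 3 DNMT3L libraries (red) and the 3 control libraries (dark), with a bar for the mean and SD (n = 3). In all 7 panels DNMT3L libraries 1 and 3 lie under every control point and library 2 lies above the other DNMT3L libraries.

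The pathway opens with nvd, an oxygenase that turns cholesterol into its dehydro form. Its level was 22.5, 53.5 and 22.5 CPM in DNMT3L libraries 1 to 3 and 42.01, 31.2 and 42.3 CPM in control libraries 1 to 3. DNMT3L 2 was the highest of the 6 libraries and the other 2 DNMT3L libraries were the lowest, so the groups overlapped. Its log2 fold change was −0.23 ± 0.38 (SE, edgeR adjusted p = 0.696), and its direction turned, to 0.046, without control 1 and DNMT3L 1.

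The next steps, which lead from the dehydro form to the diketol and are known as the black box, need sro, a short-chain dehydrogenase, and spok, a cytochrome P450. The level of sro was 13.1, 28.7 and 20.8 CPM in DNMT3L libraries and 50.1, 28.0 and 32.4 CPM in controls. Control 1 stood above the rest, and DNMT3L 2 lay just above control 2. For sro the log2 fold change was −0.82 ± 0.35 (SE, edgeR adjusted p = 0.332), or −0.54 without control 1 and −0.29 without both libraries numbered 1. The level of spok was 180.0, 317 and 189 CPM in DNMT3L libraries and 247, 261 and 338 CPM in controls. DNMT3L 2 lay inside the control range, and the log2 fold change was −0.30 ± 0.26 (SE, edgeR adjusted p = 0.479). The related P450 gene spo, which serves the embryo and adult where spok serves the larva, had between 0 and 4 reads per library and was not tested.

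The last steps in the gland are hydroxylations of the side chain and ring by phm, dib and sad, all mitochondrial or microsomal P450 enzymes. The level of phm was 175, 399 and 203 CPM in DNMT3L libraries and 471, 386 and 509 CPM in controls. DNMT3L 2 exceeded control 2 alone. In the edgeR fit its log2 fold change was −0.81 ± 0.33 (SE), 1.76-fold lower in DNMT3L, with a 95% interval of −1.61 to −0.02 before adjustment (edgeR adjusted p = 0.332).

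For sad, which acts last of the 3, the level was 167, 306 and 181 CPM in DNMT3L libraries and 416, 335 and 366 CPM in controls. This was the single member whose groups did not overlap, where the background over all genes was 28.1% in either direction. Its log2 fold change was −0.77 ± 0.26 (SE), 1.71-fold lower in DNMT3L (edgeR adjusted p = 0.332).

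The level of dib was 6.76, 22.97 and 10.02 CPM in DNMT3L libraries and 23.2, 22.8 and 20.5 CPM in controls. The controls spanned a narrow range, and DNMT3L 2 was inside it. With its wide DNMT3L spread the log2 fold change of dib was −0.74 ± 0.44 (SE, edgeR adjusted p = 0.359).

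In the corpora allata, jhamt methylates the acid precursors of juvenile hormones. It was at 3.57, 14.6 and 8.60 CPM in DNMT3L libraries and 24.2, 10.6 and 18.0 CPM in controls. Control 2 lay below DNMT3L 2, and DNMT3L 1, with 67 reads, was the lowest of the 6. The log2 fold change of −0.98 ± 0.54 (SE) had a 95% interval from −2.27 to 0.31 (edgeR adjusted p = 0.346). The shortest of the 7 at 1073 exonic bases, jhamt had a log2 fold change of −0.67 once each library's trend of level on exonic size was removed. The same removal gave −0.07 for nvd, −0.16 for spok, −0.51 for sro, −0.62 for sad, −0.66 for dib and −0.77 for phm. For jhamt without both libraries numbered 1 the value was −0.31.

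Read per length, the enzymes fell into an abundant and a scarce class, 3 genes each among the 6 of the prothoracic gland. In DNMT3L libraries spok averaged 137 ± 45.3 FPKM, sad 130.3 ± 45.2 FPKM and phm 124 ± 58.1 FPKM, while in controls sad averaged 197 ± 4.79 FPKM, phm 194 ± 24.1 FPKM and spok 151 ± 32.3 FPKM (SD, n = 3 each). The library ranges of neighbours in this order overlapped in both groups, though within each control spok was the lowest of the 3. The scarce class in DNMT3L libraries was nvd at 20.1 ± 10.9 FPKM, sro at 19.2 ± 7.19 FPKM and dib at 7.10 ± 4.57 FPKM, and in controls sro at 29.6 ± 6.62 FPKM, nvd at 20.9 ± 2.59 FPKM and dib at 10.6 ± 0.979 FPKM. By the same library ranges, neighbours in the scarce class overlapped in DNMT3L libraries and did not overlap in controls. Within libraries, nvd ranked above sro in DNMT3L 1 and 2 and below it in DNMT3L 3 and every control. On the same scale jhamt was at 8.80 ± 5.41 FPKM in DNMT3L libraries and 15.1 ± 4.72 FPKM in controls. In the deposited table dib ranked last of the 6 in every library.

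The 7 genes shared a wide spread within the DNMT3L group. Their SD on the log2(CPM + 0.5) scale over the 3 DNMT3L libraries lay between 0.45 and 0.95, beside a median of 0.24 over all genes tested, and over the 3 controls between 0.09 and 0.59, beside a median of 0.34. Such a spread was not particular to them. Over the DNMT3L libraries it was 0.87 to 1.59 for 5 muscle markers and 1.24 to 1.60 for 5 salivary gland markers, but 0.25 to 0.43 for 5 tracheal markers. DNMT3L 2 was the highest DNMT3L library in 7 of 7 members, where the background was 33.5% of genes. It was at least 1.5 times each of the other DNMT3L libraries in 6 of 7, all but sro, where the background was 3.83%. DNMT3L 2 was picked out from these same values, and genes of the same organ are not separate observations. Both counts are therefore a description. DNMT3L 1 was the lowest DNMT3L library in 6 of 7 members, against 43% of genes, and the lowest of all 6 libraries in 6 of 7, against 34%. Relative to the control mean, DNMT3L 1 was between 0.203 for jhamt and 0.638 for spok, DNMT3L 3 between 0.447 for phm and 0.669 for spok, and DNMT3L 2 between 0.780 for sro and 1.39 for nvd. DNMT3L 2 was inside the control range for 5 members, above it for nvd and below it for sad.

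DNMT3L 2 was singled out here because its values stood apart from the other DNMT3L libraries in these genes, so the values without it are a description. Leaving it out moved the 7 genes more than leaving out any other library. Without it the log2 fold changes were −1.27 for phm, −1.40 for dib, −1.09 for sad, −0.61 for spok, −0.78 for nvd, −1.12 for sro and −1.53 for jhamt. All 7 then had an unadjusted edgeR p under 0.05, which held for 11.1% of 9687 genes in either direction and 6.99% in the lower direction, but none passed adjustment (edgeR adjusted p = 0.395 for each). With another library left out, the members with an unadjusted edgeR p under 0.05 were 0 of 7 without DNMT3L 1 (6.66% of genes), 0 without DNMT3L 3 (7.33%), 0 without control 1 (11.6%) and 0 without control 3 (8.96%). Without control 2 they were 3, namely phm, sad and sro, where the background was 26.5%. With DNMT3L 1 left out instead the value of nvd was −0.03, and with DNMT3L 3 left out it was −0.02.

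**Figure D2:**
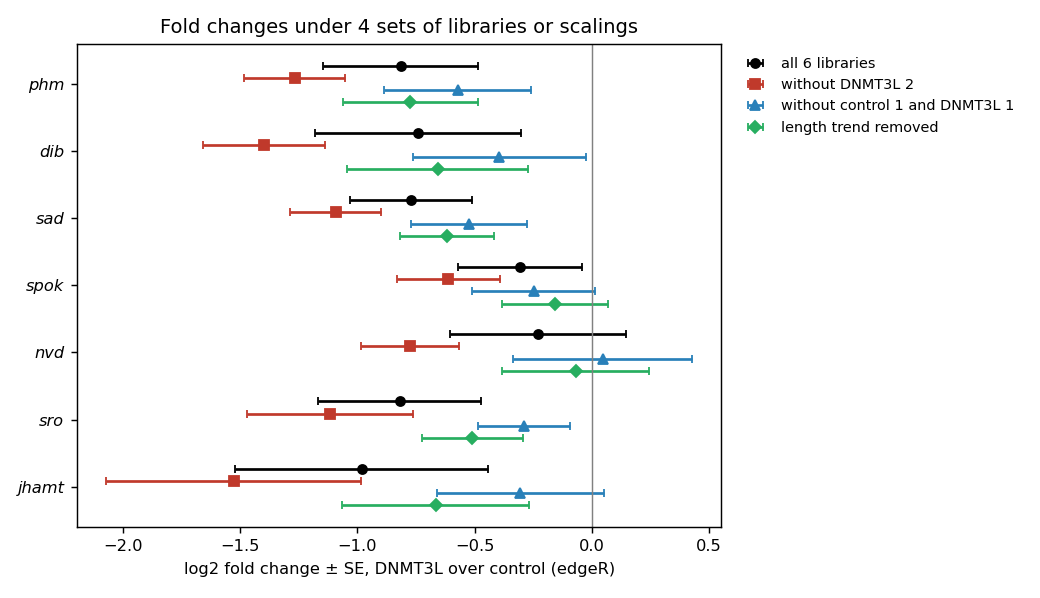
The log2 fold change of each gene, DNMT3L over control, with its standard error (horizontal axis), from all 6 libraries, without DNMT3L 2, without control 1 and DNMT3L 1, and with the length trend removed. Every point lies left of 0 except nvd without control 1 and DNMT3L 1, and the points without DNMT3L 2 lie farthest left for all 7 genes.

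Ratios between the enzyme genes within a library were computed for 9 pairs, chosen after their values were seen. The exact permutation test cannot decide whether a ratio differs, because 3 against 3 libraries allow no p under 0.1. The ratio of spok to phm was 1.03, 0.794 and 0.928 in DNMT3L libraries and 0.523, 0.677 and 0.665 in controls, in CPM. Every DNMT3L library lay above every control. The ratio of nvd to phm was 0.129, 0.134 and 0.110 in DNMT3L libraries and 0.0891, 0.0809 and 0.0832 in controls, again without overlap. The shift of the mean log2 ratio, DNMT3L minus control, was 0.56 for each of these pairs.

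Set against sad in place of phm, the same genes gave 1.08, 1.03 and 1.04 for spok in DNMT3L libraries and 0.593, 0.781 and 0.924 in controls. For nvd they gave 0.134, 0.175 and 0.124 in DNMT3L libraries and 0.101, 0.0933 and 0.115 in controls. Exonic sizes differ little among these 3 genes, at 1773 bases for sad, 1767 for spok and 1722 for nvd. For each of the 4 ratios the exact two-sided permutation test gave p = 0.1, the smallest that 3 against 3 libraries allow, and 0.225 after adjustment over the 9 ratios computed. The other 5, among them sad, dib, sro and jhamt to phm and nvd to spok, overlapped between groups, with exact p between 0.5 and 0.9. The 4 ratios share spok, nvd, phm and sad among them. The pairs were chosen after their values were seen, so these p-values are not evidence, and the ratios are given as a description.

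**Figure D3:**
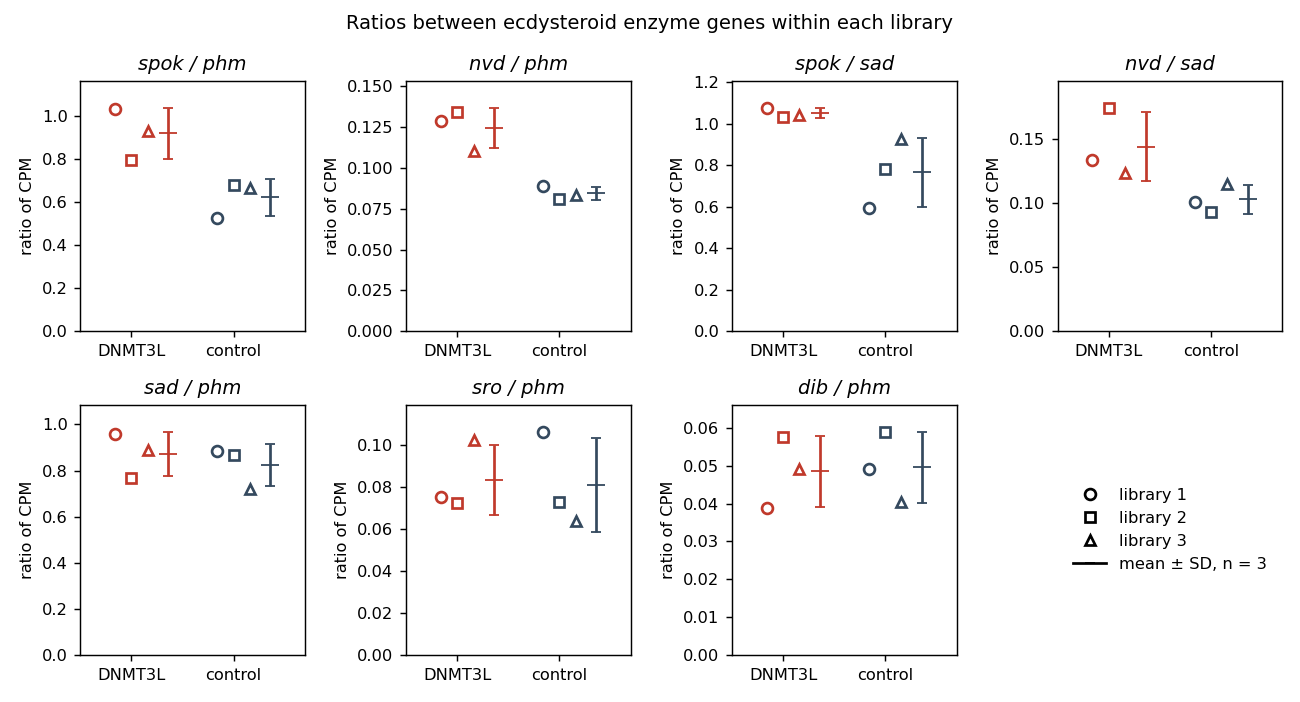
Ratios of CPM between pairs of ecdysteroid enzyme genes within each library (vertical axis from 0), in DNMT3L libraries (red) and controls (dark), with mean and SD (n = 3). The 4 panels with spok or nvd over phm or sad show no overlap between groups, with spok over phm from 0.794 to 1.03 in DNMT3L libraries and 0.523 to 0.677 in controls, and the panels for sad, sro and dib over phm overlap.

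As shares of the summed FPKM of the 6 ecdysteroid genes, spok made up 31.7 ± 1.88% in DNMT3L libraries and 24.9 ± 3.55% in controls, and nvd 4.45 ± 0.667% in DNMT3L libraries and 3.47 ± 0.233% in controls (SD, n = 3 each). The share of phm was 27.9 ± 2.06% in DNMT3L libraries and 32.1 ± 1.20% in controls. For these 3 shares the groups did not overlap (exact permutation p = 0.1, adjusted over 6 shares 0.2), and those of sad, sro and dib overlapped. Shares within a library add up to a whole, so a rise in some forces a fall in others. The shares draw on the same genes as the ratios and are not a separate result. No background over other genes was computed for shares or ratios. By FPKM, spok ranked 1, 2 and 1 of the 6 in DNMT3L libraries 1 to 3 and ranked 3 in every control. The summed FPKM was 318, 633 and 363 in DNMT3L libraries and 571, 574 and 665 in controls, with DNMT3L 2 again inside the control range.

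Other genes of ecdysteroid synthesis were mostly a little lower in DNMT3L libraries, without a call. Of 12 tested, 10 had negative log2 fold changes, with a median of −0.26, and 0 passed edgeR. Of these GstE14, known as noppera-bo and needed for cholesterol use in the gland, was at 10.4, 29.1 and 19.5 CPM in DNMT3L libraries and 63.6, 21.9 and 30.6 CPM in controls (log2 fold change −0.98, edgeR adjusted p = 0.335). Start1, a cholesterol transfer protein gene, was at 73.4, 105.0 and 72.5 CPM in DNMT3L libraries and 105, 106 and 93.7 CPM in controls, with DNMT3L 2 level with the controls once more. Shared redox partners of mitochondrial P450 enzymes, dare and Fdx1, did not overlap between groups and were lower in DNMT3L, at 18.6 ± 0.783 CPM in DNMT3L libraries and 25.2 ± 5.79 CPM in controls for dare, and at 12.9 ± 1.19 CPM in DNMT3L libraries and 18.3 ± 4.01 CPM in controls for Fdx1. The edgeR adjusted p was 0.333 for dare and 0.332 for Fdx1, and 14.1% of all genes were lower without overlap. Cyp6t3, also of this list, was higher in DNMT3L without overlap, as were 14% of all genes. It had between 2 and 13 reads per library (log2 fold change 0.94, edgeR adjusted p = 0.358). The enzyme that activates ecdysone outside the gland, shd, was near 1 CPM in both groups, at 1.04 ± 0.196 CPM in DNMT3L libraries and 1.24 ± 0.137 CPM in controls.

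Of 11 transcription factor genes known to act on these enzymes, 9 had positive log2 fold changes, as had 47.7% of all genes, and the median was 0.52, but the median turned to −0.19 with the length trend removed and to −0.21 without both libraries numbered 1, and 0 passed edgeR. Most of them are also expressed in the brain itself, so their reads cannot be assigned to the gland. An exception by known expression is ouib, a zinc finger factor of the prothoracic gland that acts on spok. It was at 4.95, 8.52 and 4.75 CPM in DNMT3L libraries and 14.2, 7.87 and 9.39 CPM in controls, so it too had its highest DNMT3L value in library 2 (log2 fold change −0.79, edgeR adjusted p = 0.332). The pattern of mld, a zinc finger factor needed for spok and nvd, was different, at 127, 74.1 and 71.4 CPM in DNMT3L libraries and 33.4, 83.3 and 62.0 CPM in controls.

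Of 12 genes for signals that reach the gland, 10 were positive and 0 passed edgeR. Their median of 0.62 became 0.31 when control 1 was left out and 0.24 with the length trend removed, and 7 of the 12 were higher without overlap between groups, as were 14% of all genes. Brain markers moved with these genes, with 6 of 7 positive, a median of 1.04, 4 higher without overlap, and control 1 lowest in both lists. The brain markers brp, elav, Syt1 and nSyb, with 13350, 10715, 9454 and 4072 exonic bases, had log2 fold changes of 1.79, 1.27, 1.43 and 1.04. The shorter repo, dpn and alrm, with 2996, 2036 and 1717 bases, had 0.33, 0.42 and −0.03. The 4 longer genes are markers of neurons and the shorter ones of glia or neuroblasts. Length and cell class therefore cannot be told apart in this list. No brain median with the length trend removed is given. The part of brain markers in the signal genes' values was not tested. Ptth, the brain peptide that triggers ecdysone synthesis, was at 6.07, 7.88 and 6.63 CPM in DNMT3L libraries and 4.01, 5.26 and 3.87 CPM in controls. The groups did not overlap (log2 fold change 0.65, edgeR adjusted p = 0.332). Its receptor tor, a tyrosine kinase of the prothoracic gland, was at 2.18, 3.55 and 2.38 CPM in DNMT3L libraries and 2.98, 4.12 and 4.15 CPM in controls, and its log2 fold change was −0.47 (edgeR adjusted p = 0.391). Downstream genes of that receptor had positive values that did not pass, rl, the ERK kinase gene, at 101 ± 10.2 CPM in DNMT3L libraries and 56.0 ± 11.7 CPM in controls (edgeR adjusted p = 0.290).

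For juvenile hormone, 13 further genes were tested, of which 9 were negative with a median of −0.17 and 0 passed edgeR. That median was 0.006 by limma on either FPKM scale. The P450 gene Cyp6g2, known from the corpora allata, was at 16.4, 33.3 and 19.6 CPM in DNMT3L libraries and 59.3, 30.4 and 50.1 CPM in controls. Like jhamt, it had DNMT3L 2 above control 2 and below the other controls (log2 fold change −1.01, edgeR adjusted p = 0.332). The epoxide hydrolase genes Jheh1 and Jheh2, which break juvenile hormone down, were lower in DNMT3L without overlap, as were 14.1% of all genes, Jheh2 at 184 ± 30.0 CPM in DNMT3L libraries and 285 ± 55.3 CPM in controls (edgeR adjusted p = 0.332). Jheh3, the third hydrolase gene, overlapped between groups, at 25.3 ± 9.77 CPM in DNMT3L libraries and 38.5 ± 21.6 CPM in controls (log2 fold change −0.60, edgeR adjusted p = 0.445). The receptor genes Met and gce had positive log2 fold changes of 0.54 and 0.73, without a call. Without overlap, 3 of the 13 genes were lower, namely Jheh1, Jheh2 and Fpps, and 1 was higher, namely gce. The shares over all genes were 14.1% and 14%. Of the third ring gland compartment, Akh, the adipokinetic hormone gene of the corpora cardiaca, was at 20.97, 43.8 and 24.7 CPM in DNMT3L libraries and 57.9, 27.3 and 37.1 CPM in controls (log2 fold change −0.45, edgeR adjusted p = 0.466). Lst, a peptide gene of the same cells, was at 2.24, 3.81 and 2.63 CPM in DNMT3L libraries and 3.77, 2.66 and 3.07 CPM in controls. In both, DNMT3L 2 was above the other DNMT3L libraries.

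**Figure D4:**
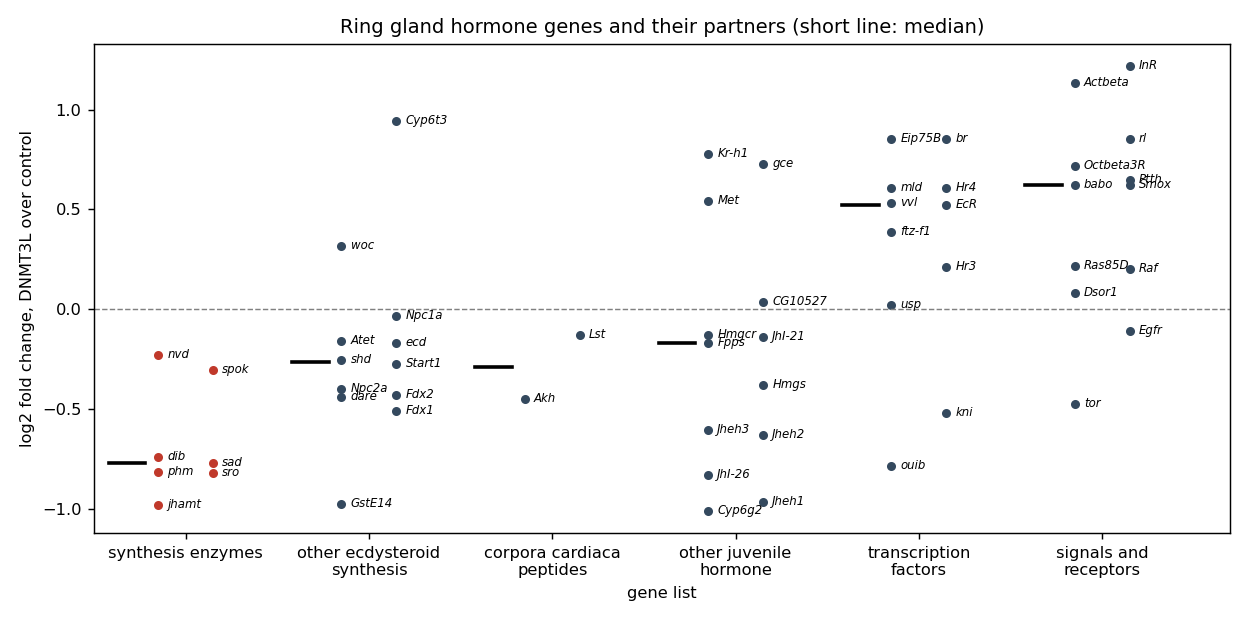
The log2 fold change, DNMT3L over control (vertical axis), of each tested gene in 6 lists: the synthesis enzymes (red), other ecdysteroid synthesis genes, corpora cardiaca peptides, other juvenile hormone genes, transcription factors, and signals with their receptors. Short lines mark medians, −0.77 for the enzymes and 0.62 for the signals, and no gene shown passed edgeR.

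Markers of tissues other than brain and gland also differed between libraries. The 7 brain markers were all detected and summed to between 783 and 1304 CPM in DNMT3L libraries and between 299 and 692 CPM in controls, with control 1 lowest and 6 of 7 positive. The 7 ring gland genes summed to between 568 and 1142 CPM in DNMT3L libraries and between 1075 and 1327 CPM in controls. Trachea, which runs beside the gland, had 4 of 5 markers lower, summing to between 277 and 425 CPM in DNMT3L libraries and between 547 and 656 CPM in controls. For 4 of the 5 tracheal markers DNMT3L 2 was the highest DNMT3L library, and for 4 of 5 DNMT3L 1 and 3 lay below every control. Muscle markers were lower for 5 of 5, at 74.0 to 288 CPM in DNMT3L libraries and 351 to 732 CPM in controls. DNMT3L 2 was the highest DNMT3L library for 4 of the 5 muscle markers too, and DNMT3L 1 and 3 lay below every control for 5 of 5. Larval fat body markers were lower for 5 of 5, at 493 to 759 CPM in DNMT3L libraries and 1081 to 2036 CPM in controls, and hemocyte markers for 5 of 5, at 172 to 232 CPM in DNMT3L libraries and 274 to 377 CPM in controls. Salivary gland markers were higher for 5 of 5, at 24.4 to 192 CPM in DNMT3L libraries and 12.7 to 55.5 CPM in controls. Of 3 dorsal vessel markers tested, 1 was higher and 2 were lower, and the list summed to between 33.8 and 59.1 CPM in DNMT3L libraries and between 19.4 and 37.5 CPM in controls. The higher gene, tup, was the largest part of that sum in every library. It was at 28.7 to 54.1 CPM in DNMT3L libraries and 8.15 to 29.9 CPM in controls. No marker of these lists was at 0 in all libraries, none passed edgeR, and their part in the ring gland values was not tested. The 21 ecdysone response genes tested had a median log2 fold change of 0.38, with 15 positive. Their median deviation from the control mean was 0.97, −0.05 and 0.32 log2 units in DNMT3L libraries 1 to 3 and −0.85, 0.70 and 0.17 in controls 1 to 3, so by this median the groups overlapped. Of the 21 genes, 4 were lower and 0 higher without overlap, beside 14.1% and 14% of all genes. No median with the length trend removed is given for this list. It shares EcR, usp, Eip75B, br, Hr3, Hr4 and ftz-f1, all positive, with the transcription factor list above, so these lists are not separate.

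**Figure D5:**
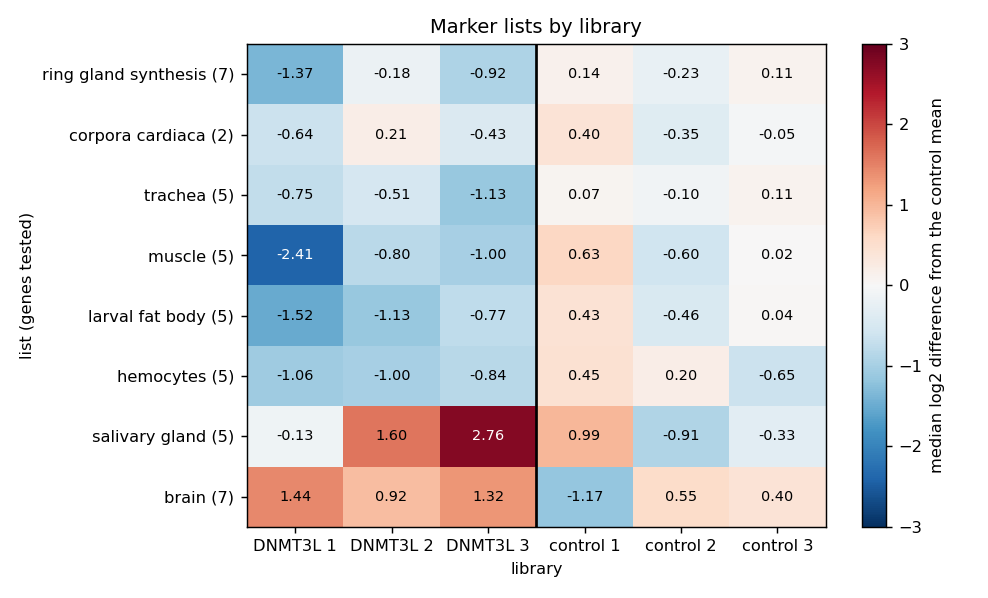
Median log2 difference from the control mean, on the log2(CPM + 0.5) scale, of the tested genes of 8 marker lists (rows, number of genes in brackets) in each library (columns, DNMT3L left of control). The ring gland row is at −1.37 and −0.92 in DNMT3L libraries 1 and 3 and at −0.18 in DNMT3L 2, while the brain row is lowest in control 1 at −1.17.

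The mean profile of the 6 ecdysteroid genes over the 6 libraries was compared with that of every other gene, by the root-mean-square distance between log2(CPM + 0.5) values centred on each gene's own mean. The 6 genes themselves lay between 0.11 and 0.25 from their mean profile, and the median over all other genes was 0.54. Since the profile is the mean of these same 6 genes, their closeness to it is partly built in. Other genes lay as near, among them the tracheal marker verm at 0.20 and ouib at 0.22. The 5 nearest other genes were CG14132 at a distance of 0.095, cu at 0.12, CG7130 at 0.13, CG6293 at 0.14 and Cda4 at 0.14. Genes of the related lists were spread over the 9488 other genes. The 12 other ecdysteroid genes ranked between 403 for Start1 and 6984 for Cyp6t3, with GstE14 at 2828. The 11 transcription factors ranked between 61 for ouib and 9466 with a median of 8038, and the 12 signal genes between 424 for tor and 9328 with a median of 7309. The 13 juvenile hormone genes ranked between 165 for Cyp6g2 and 9388, and the corpora cardiaca genes Akh and Lst at 195 and 717. The tracheal markers verm and serp ranked 38 and 66, and the other tracheal markers Gasp, btl and trh ranked 1270, 1892 and 8178. The 5 muscle markers ranked between 4378 and 8169 and the 7 brain markers between 4496 and 9469. The 5 genes nearest to jhamt were CG45076, CG3301, wupA, CG7296 and GstE9, at distances between 0.04 and 0.15, and wupA encodes a troponin of muscle. These orders rest on 6 libraries, and leaving out any 1 of them kept 1 or 2 of the 5 genes nearest to the ecdysteroid profile.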

How the data were processed

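RNA of larval brains was sequenced in 3 DNMT3L and 3 control samples. The deposited table gives whole-number read counts per gene and, per the file headers, FPKM, exonic sizes and coordinates. The deposited FPKM could be recomputed from counts, exonic size and total count for 100% of values, within 0.0051. Per the submitters' processing notes the builds named were dm6 and BDGP6, and the tools HISAT2 2.0.1, cutadapt 1.9.1, DESeq2, bcl2fastq 2.17.1.14 and HTSeq 0.6.1. Their roles and any strand setting were not given in the sources used here. All 7 members had the same coordinates in the Ensembl annotation of BDGP6, nvd under a newer identifier.

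Counts were tested with edgeR 4.0.16 in R 4.3.3. Genes were filtered with filterByExpr (8242 removed, 9495 kept), scaled by TMM, and compared by the two-sided quasi-likelihood test (glmQLFit, glmQLFTest). All 9495 p-values were adjusted together by Benjamini-Hochberg, and calls needed an adjusted p under 0.05. Standard errors are those implied by the F statistic. A floor of 3 counts lay at 0.156 to 0.167 CPM before TMM scaling and covers counting error only. The lowest member count, 67, has a counting error of 12.2%. The edgeR step was tested on simulated data, drawn independently for each gene, with 50 genes at each of 2-, 4-, 8- and 16-fold changes. It made 10 false calls, with 9380 genes tested. Ratios and shares were compared by exact permutation over libraries with scipy 1.17.1.

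The members, gene lists and alternatives were chosen with earlier results of these data known. The rule named every member, the 5 genes nearest to each profile, and genes of the related lists. List entries were matched by symbol, RefSeq synonym or letter case, and all 119 matched. Alternatives were DESeq2 1.42.0, a block for replicate number, upper quartile and RLE factors, leaving out 1 library or both libraries numbered 1, testing without the filter, removing a loess trend (span 0.5) on exonic size within each library, and limma 3.58.1 on log2(FPKM + 1) and log2(FPKM + 0.1). No sequences are shown.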

Additional observations from a re-analysis of the deposited data

How the results depend on the processing

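Over 15 alternatives no member was called, at adjusted p between 0.122 and 0.981, and 104 of 105 member values kept their direction. The exception was nvd, at 0.046 without both libraries numbered 1. Leaving out 1 library each gave ranges of −1.27 to −0.61 for phm, −1.40 to −0.44 for dib, −1.09 to −0.63 for sad, −0.61 to −0.15 for spok, −0.78 to −0.02 for nvd, −1.12 to −0.54 for sro and −1.53 to −0.62 for jhamt. Over all genes edgeR called 0, against 292 by DESeq2, 2 with RLE factors, 6 without the low-count filter, 16 without both libraries numbered 1, 13 with the length trend removed, and 13 and 11 by limma on log2(FPKM + 1) and log2(FPKM + 0.1). The cause was not tested. The median log2 fold change of the other ecdysteroid genes was −0.13 without both libraries numbered 1 and −0.074 and −0.10 by limma on log2(FPKM + 1) and log2(FPKM + 0.1). That of the transcription factors was −0.21 without both libraries numbered 1. That of the signals was 0.14 without both libraries numbered 1, 0.24 with the length trend removed, and 0.31 to 0.81 with 1 library left out. That of the other juvenile hormone genes was 0.01 by limma on either scale, and that of the corpora cardiaca genes 0.13 without both libraries numbered 1. Of the 5 genes nearest to the ecdysteroid profile, 1 was shared with the length trend removed and 1 without both libraries numbered 1, and 1 to 2 with 1 library left out. For jhamt these were 2, 1, and 1 to 4.

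The samples share only a replicate number. Same-numbered deviations from the group means had correlations across genes of −0.71, −0.58 and −0.21, and 0 of 6 libraries correlated best with their own number. With a replicate block edgeR called 0 genes, with 458 at an unadjusted p under 0.05 against 1427 without it. Under the block the members' median log2 fold change was −0.84, with phm at −0.91, dib at −0.93, sad at −0.82, spok at −0.34, nvd at −0.36, sro at −0.84 and jhamt at −1.11. Depth limits jhamt and dib most, with 67 and 127 reads in DNMT3L 1.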
